A study of Homo sapiens with 6 samples.

Results

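Iron enters hepatocytes mainly bound to transferrin, is stored inside the cell in the ferritin shell and leaves through ferroportin. The liver also makes hepcidin, a peptide hormone that binds ferroportin and has it degraded, so that the body's iron export is set from the liver. The data below follow 10 genes of this system, chosen by symbol from the deposited expression table of 58037 gene rows: the carrier TF, the receptors TFRC and TFR2, the importer SLC11A2, the ferritin chains FTH1 and FTL, the exporter SLC40A1, the ferroxidase CP, and the hepcidin gene HAMP with its upstream sensor HFE. All 10 symbols were found once each.

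The cells were HepaRG, a human line derived from a hepatocellular carcinoma that differentiates in culture into hepatocyte-like and biliary-like cells. The 3 fatty acid samples had 0.5 mM palmitate and oleate, mixed 1 to 2 and bound to bovine serum albumin at 0.02%, in the medium for 72 h, and the 3 control samples had albumin at 0.02% alone for 72 h. All cells were of passages 15 to 18, were differentiated and were kept beforehand in a basal medium with insulin and hydrocortisone hemisuccinate. Nothing in the labels ties the replicates to separate cultures, and the spread behind each p-value may therefore be only technical.

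Levels are the authors' FPKM (read counts scaled by gene length and library depth), given as mean ± SD with n = 3 per group. The libraries held 8364570 to 15941353 reads with fatty acid and 6331372 to 11821423 reads in control. Log2 fold changes (fatty acid over control, ± SE) are of log2(FPKM + 0.5), a scale on which low genes appear to change less than they did, and "called" means a limma p below 0.05 after Benjamini-Hochberg adjustment over 14661 genes, those that averaged 0.5 FPKM or more. Of the 12 hepatocyte markers, all tested, 9 were lower with fatty acid and SERPINA1 was higher, and their summed level was 10258 to 10813 FPKM with fatty acid and 14988 to 15414 FPKM in control. Most of that sum was ALB, at 7127 ± 306 FPKM with fatty acid and 12025 ± 318 FPKM in control. Of 10 macrophage markers C1QA, C1QB and VSIG4 were listed at 0 in all 6 libraries and CD14 alone reached the expression minimum, at 12.7 ± 0.736 FPKM with fatty acid and 10.6 ± 2.75 FPKM in control (not called). The 10 summed to 13.1 to 14.2 FPKM with fatty acid and 9.34 to 14.4 FPKM in control. Of 8 erythroid markers HBB, HBA1, HBA2 and GATA1 were among those listed at 0, and EPOR alone reached the minimum, at 1.64 ± 0.309 FPKM with fatty acid and 2.47 ± 0.592 FPKM in control (not called). Of 10 biliary and progenitor markers 5 were tested, of which CD24 was lower and 4 were not called, with a median log2 fold change of -0.02. In bulk libraries fewer cells of a type and less RNA per cell cannot be told apart.

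Several of these mRNAs carry an iron responsive element, a hairpin in an untranslated region (UTR) bound by the iron regulatory proteins when cell iron is low. Bound in the 5′ UTR it holds back translation, and bound in the 3′ UTR of TFRC it protects the mRNA from decay. The elements are shown because they divide the genes by position, and because both ferritin mRNAs carry nearly the same one. They were found as a C, any 5 bases and the loop CAGTGN in transcript sequences of GENCODE 29 (GRCh38), read on the mRNA strand, with at least 4 of the 5 bases before the loop able to pair with the 5 after it, G with T included. Capitals mark the bulged C and the 6 loop bases. The first 7 windows pair at 5 of 5 positions and the SLC11A2 window at 4 of 5.
FTH1, 5′ UTR, exon 1, chr11:61967573-61967602, minus strand: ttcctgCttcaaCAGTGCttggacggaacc
FTL, 5′ UTR, exon 1, chr19:48965335-48965364, plus strand: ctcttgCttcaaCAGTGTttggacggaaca
SLC40A1, 5′ UTR, exon 1, chr2:189580660-189580689, minus strand: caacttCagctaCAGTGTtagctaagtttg
TFRC, 3′ UTR, exon 19, chr3:196050978-196051007, minus strand: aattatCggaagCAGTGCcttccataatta
TFRC, 3′ UTR, exon 19, chr3:196050574-196050603, minus strand: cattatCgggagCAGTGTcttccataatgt
TFRC, 3′ UTR, exon 19, chr3:196050509-196050538, minus strand: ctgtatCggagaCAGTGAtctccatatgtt
TFRC, 3′ UTR, exon 19, chr3:196050462-196050491, minus strand: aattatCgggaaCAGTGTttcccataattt
SLC11A2, 3′ UTR, exon 16, chr12:50988268-50988297, minus strand: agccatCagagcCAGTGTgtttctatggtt
The SLC11A2 window was in 5 of the 11 coding transcripts of the basic annotation, and the FTH1 window in 5 of 6. A match at 4 of 5 positions also lay in 1 of 11 HFE transcripts, and 1 at 5 of 5 positions in a long TF transcript beyond the end of TF in the deposited table. Among all coding genes with such a UTR, 0.161% had a match at 5 of 5 positions in the 5′ UTR and 0.671% in the 3′ UTR, and with 4 of 5 allowed the shares were 1.29% and 4.66%. A match describes these letters only.

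With fatty acid the mRNAs of ferritin heavy chain and ceruloplasmin were higher and those of transferrin and ferroportin lower. The ferroportin call depended on the settings and was lost in 8 of 17 alternatives. Of the 10 genes 8 were expressed highly enough to be tested, and 4 were called, FTH1 and CP higher and TF and SLC40A1 lower. Over all genes tested, 12.9% were called, 8.22% higher and 4.68% lower. TFRC, SLC11A2, FTL and HFE were not called, and TFR2 and HAMP lay below the expression minimum. In 7 of the 8 tested genes the FPKM ranges of the groups did not overlap, against 37.1% of all genes tested. The 10 genes were chosen with earlier results of these data known, so setting them beside all genes is no test. The median log2 fold change of all tested genes was 0.04. The split of 1205 higher and 686 lower calls moved with the scaling, to 717 and 861 with median-of-ratios factors, 758 and 772 with quantile normalization, 706 and 828 with scaling to nuclear reads, 1268 and 1445 with voom, and 2615 and 408 after rescaling to TPM. Without fatty acid replicate 1, 2 or 3 or control replicate 3 there were 463, 484, 913 and 1041 calls in place of 1891.

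**Figure D1:**
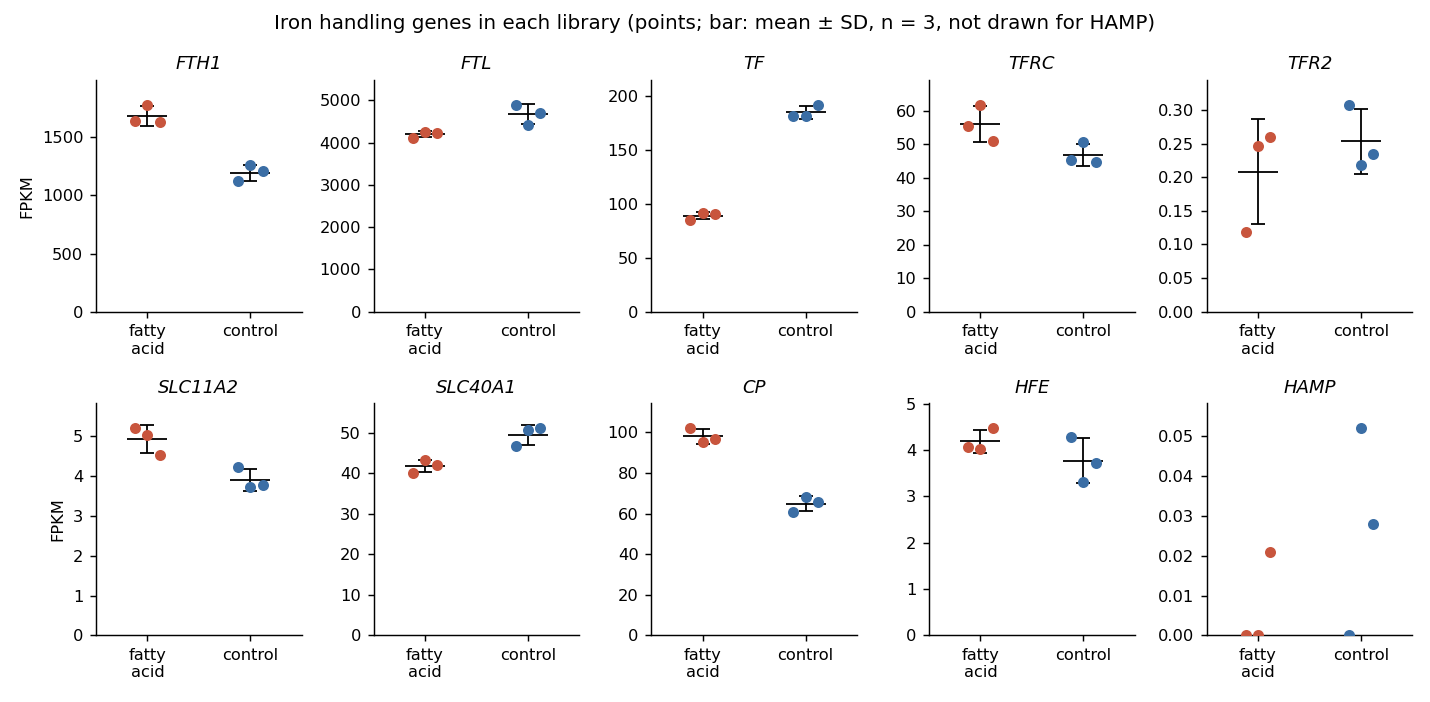
FPKM (vertical axes, each from 0 and each with its own scale) of the 10 iron handling genes, with 1 point per library, fatty acid left and control right. Bars are mean ± SD (n = 3) and are left out for HAMP, whose axis ends near 0.05 FPKM. The fatty acid points of TF lie at 85.2 to 91.5 FPKM, all below the control points at 181 to 192 FPKM.

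Ferritin stores iron in a shell built of heavy chains (FTH1), which oxidize the iron as it enters, and light chains (FTL), which help to form the mineral core. FTH1 (ENSG00000167996.15, chromosome 11, 61959718 to 61967660) had 1634, 1779 and 1629 FPKM in fatty acid replicates 1, 2 and 3, against 1119, 1256 and 1205 FPKM in control replicates 1, 2 and 3. The lowest fatty acid library lay well above the highest control library. FTH1 averaged 1681 ± 85.4 FPKM with fatty acid and 1194 ± 69.3 FPKM in control, a rise of 0.49 ± 0.07 on the log2 scale (limma adjusted p = 0.00524). FTL (ENSG00000087086.14, chromosome 19, 48965301 to 48966878) had 4112, 4252 and 4216 FPKM with fatty acid, against 4896, 4416 and 4697 FPKM in control. Here the fatty acid libraries were all below the control libraries, by a small margin at control replicate 2. FTL averaged 4193 ± 72.9 FPKM with fatty acid and 4669.9 ± 241 FPKM in control, and was not called (log2 fold change -0.15 ± 0.06, limma adjusted p = 0.159). Its direction turned with quantile normalization (0.22, adjusted p = 0.074), while limma voom on recovered reads called it lower (-0.20, adjusted p = 0.00612).

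The balance of the chains did not overlap between the groups. FTL to FTH1 ratios of FPKM were 2.52, 2.39 and 2.59 in fatty acid replicates 1, 2 and 3, against 4.37, 3.52 and 3.90 in control replicates 1, 2 and 3. No fatty acid library reached the lowest control library. The ratio averaged 2.498 ± 0.1004 with fatty acid and 3.93 ± 0.431 in control, a log2 difference of -0.65 (exact two-sided permutation p = 0.1, the smallest that 3 against 3 allows). A single factor per library leaves this ratio as it is, but quantile normalization, which forces all libraries to 1 distribution, brought the log2 difference to -0.071. The size of the ratio also depends on gene length, which the table gives as 2030 bases for FTH1 and 878 for FTL. With the 1229 bases of the principal FTH1 transcript in GENCODE 29 the ratio would be 1.51 ± 0.0608 with fatty acid and 2.38 ± 0.261 in control. In reads, FTL had 1.08 ± 0.0434 for each FTH1 read with fatty acid and 1.70 ± 0.186 in control. Both chains together took 0.709 ± 0.0222% of all reads with fatty acid and 0.652 ± 0.00824% in control.

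**Figure D2:**
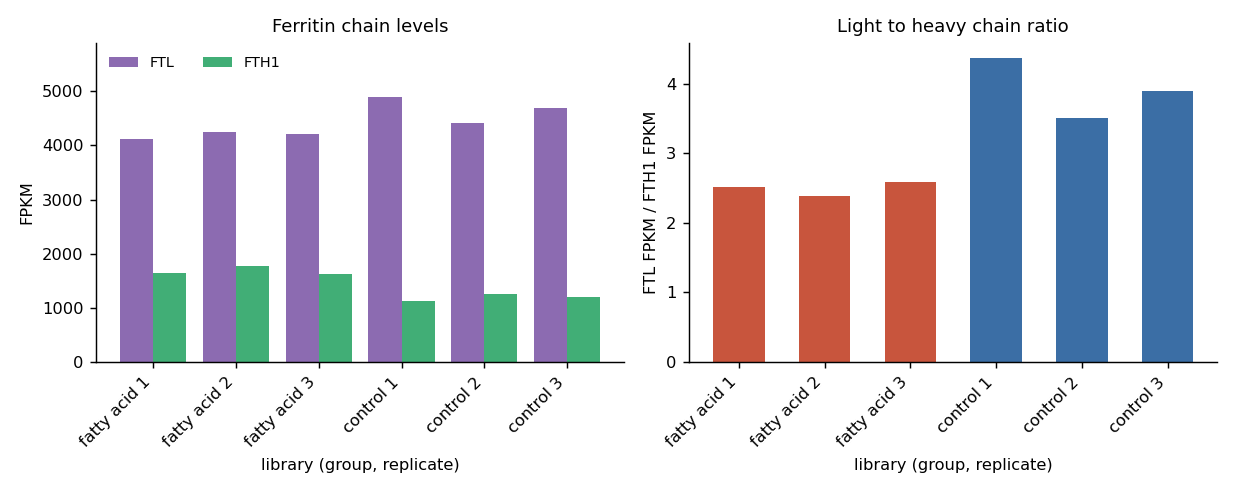
Left, FPKM of FTL and FTH1 in each of the 6 libraries. Right, the FPKM of FTL divided by that of FTH1 in the same libraries, fatty acid first. The 3 fatty acid ratios lie between 2.39 and 2.59, below the 3 control ratios between 3.52 and 4.37.

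FTH1 and FTL have many processed copies in the genome that can take or lend reads. The 25 FTH1 pseudogenes in the table held 0.374% as many reads as FTH1 itself, and the 16 FTL pseudogenes 0.127%. FTH1 was not called with no expression filter, when 28422 genes were tested (adjusted p = 0.0659).

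TF encodes transferrin, the plasma protein that carries iron and that hepatocytes secrete. TF (ENSG00000091513.14, chromosome 3, 133745956 to 133779006) had 85.2, 91.5 and 90.5 FPKM with fatty acid, against 181, 181 and 192 FPKM in control. The groups were far apart and each was narrow. TF averaged 89.1 ± 3.39 FPKM with fatty acid and 185 ± 6.24 FPKM in control, 2.07-fold lower with fatty acid, with a log2 fold change of -1.05 ± 0.05 (limma adjusted p = 8.74e-05). By p it stood 9th of the 14661 genes, and it was called in 17 of 17 alternatives, with log2 fold changes of -1.10 to -0.91. Its level ranked 331st among all genes with fatty acid and 137th in control. The fall of TF went with that of the hepatocyte markers, whose median log2 fold change was -0.66, and their part in it was not tested.

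The 3 genes whose profile over the 6 libraries lay nearest to that of TF, out of 9820 that averaged 2 FPKM or more, were HFE2, ABAT and SERPIND1, at distances of 0.1199, 0.130 and 0.142 on the log2 scale. HFE2 is the older symbol of HJV, which encodes hemojuvelin, a co-receptor that hepatocytes need for hepcidin expression. ABAT encodes GABA transaminase and SERPIND1 the plasma protease inhibitor heparin cofactor II. The nearest to CP, the member with the largest rise, were KLF10, TMED5 and BUB1B, at 0.0766, 0.0865 and 0.0912. These distances say nothing of shared control.

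Transferrin receptor 1, encoded by TFRC, takes up iron-loaded transferrin on most cells and is made in larger amounts by dividing cells. TFRC (ENSG00000072274.12, chromosome 3, 196027183 to 196082189) had 55.5, 61.8 and 51.0 FPKM with fatty acid, against 45.3, 50.6 and 44.7 FPKM in control. The ranges did not overlap, but fatty acid replicate 3 and control replicate 2 nearly met. TFRC averaged 56.1 ± 5.42 FPKM with fatty acid and 46.9 ± 3.26 FPKM in control, and was not called (log2 fold change 0.25 ± 0.08, limma adjusted p = 0.0846). It was called after rescaling to TPM (adjusted p = 0.0341), with voom on recovered reads (0.0377) and with the replicate number as a block (0.0386). Of 8 proliferation markers 4 were higher with fatty acid, MKI67, TOP2A, CCNB1 and PCNA, and their part in the TFRC values was not tested.

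TFR2 encodes transferrin receptor 2, which in hepatocytes senses iron-loaded transferrin and acts upstream of hepcidin. It was nearly absent from these libraries. TFR2 (ENSG00000106327.12, chromosome 7, 100620416 to 100642779) had 0.118, 0.247 and 0.260 FPKM with fatty acid, against 0.308, 0.218 and 0.234 FPKM in control, and the groups overlapped. These values rest on 44 reads over the 3 fatty acid libraries and 35 reads over the 3 control libraries. Adjusted for depth, the ratio of fatty acid to control was 0.882 (95% exact interval 0.553 to 1.42, counting error only), so a difference of that order was not detectable at this depth. The ratio of TFRC to TFR2 was 470, 250.3 and 196 with fatty acid, against 147, 232 and 191 in control (exact two-sided permutation p = 0.2).

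SLC11A2 encodes DMT1, a proton-coupled importer of ferrous iron that also moves iron out of endosomes. SLC11A2 (ENSG00000110911.14, chromosome 12, 50979401 to 51028566) had 5.20, 5.04 and 4.53 FPKM with fatty acid, against 4.22, 3.71 and 3.77 FPKM in control. All fatty acid libraries were above all control libraries. It averaged 4.92 ± 0.346 FPKM with fatty acid and 3.90 ± 0.279 FPKM in control and narrowly missed the threshold (log2 fold change 0.30 ± 0.08, limma adjusted p = 0.056). SLC11A2 was called without control replicate 1 (adjusted p = 0.0426), with a minimum of 2 FPKM (0.0451), after rescaling to TPM (0.0265) and with voom (0.0292).

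SLC40A1 encodes ferroportin, the iron exporter of the cell surface. SLC40A1 (ENSG00000138449.10, chromosome 2, 189560579 to 189583758) had 40.1, 43.2 and 42.0 FPKM with fatty acid, against 46.6, 50.6 and 51.1 FPKM in control. The groups did not overlap. It averaged 41.8 ± 1.54 FPKM with fatty acid and 49.4 ± 2.46 FPKM in control, so that it fell by 15.5%, with a log2 fold change of -0.24 ± 0.06 (limma adjusted p = 0.0356). This call rested on the settings: it was lost in 8 of 17 alternatives, among them rescaling to TPM (-0.10, adjusted p = 0.332) and the removal of any 1 fatty acid replicate or of control replicate 2 or 3 (0.146, 0.0957, 0.0895, 0.0772 and 0.0905). The log2 fold change was below 0 in all 17.

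CP encodes ceruloplasmin, a copper enzyme of plasma that oxidizes ferrous iron as it leaves the cell so that transferrin can bind it, and that also belongs to the acute-phase proteins. CP (ENSG00000047457.13, chromosome 3, 149162410 to 149222055) had 102.1, 95.4 and 96.7 FPKM with fatty acid, against 60.7, 68.3 and 66.0 FPKM in control. Each fatty acid library was far above each control library. CP averaged 98.0 ± 3.53 FPKM with fatty acid and 65.0 ± 3.88 FPKM in control, 1.51-fold higher, with a log2 fold change of 0.59 ± 0.06 (limma adjusted p = 0.00136). It was called in 17 of 17 alternatives, with log2 fold changes of 0.54 to 0.73. CP overlaps HPS3 on the opposite strand, which held 5.81% as many reads, and the sources used here do not give whether strand was used in counting. By FPKM on the lengths in the table, CP lay above TF with fatty acid and below it in control. That order rests on the lengths. By share of reads TF lay above CP in both groups (0.0763% against 0.0715% with fatty acid and 0.158% against 0.0474% in control). Principal transcript lengths cannot settle it. The principal TF transcript has 20602 bases, against 8565 bases for TF in the table, and runs beyond the counted gene.

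**Figure D3:**
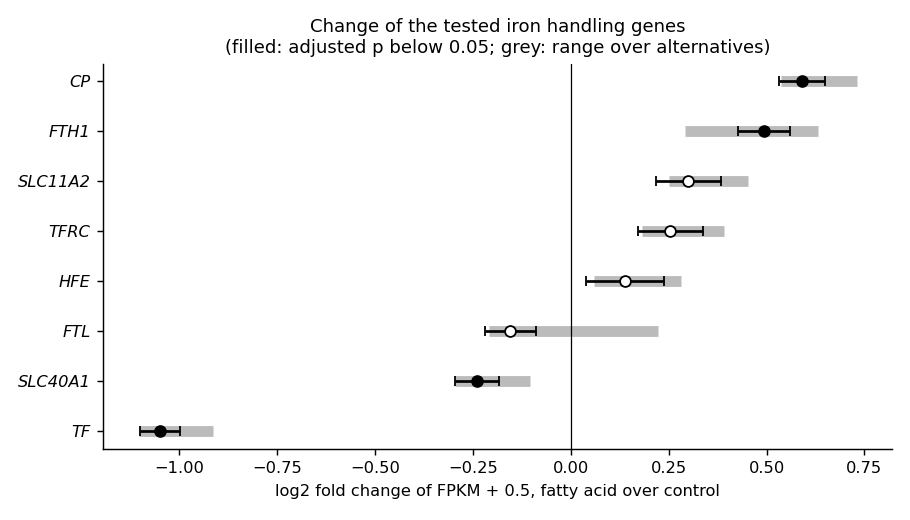
Log2 fold change (fatty acid over control) of the 8 tested genes, with SE as bars and the range over 17 alternatives in grey. Filled points were called at an adjusted p below 0.05. CP and FTH1 lie to the right and TF far to the left at -1.05, and the grey range of FTL is the only one that crosses 0.

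Hepcidin itself was at the limit of detection. HAMP (ENSG00000105697.7, chromosome 19, 35280716 to 35285143) was listed at 0, 0 and 0.021 FPKM with fatty acid and at 0, 0.052 and 0.028 FPKM in control. That is 1 read over the 3 fatty acid libraries and 2 reads over the 3 control libraries, which after adjustment for depth is a ratio of 0.351 (95% exact interval 0.00594 to 6.74). The data thus hold no usable measurement of how HAMP responded. No other gene in the table overlaps HAMP or TFR2. HFE, whose product binds transferrin receptor 1 and takes part in the control of hepcidin, was measured at a low level. HFE (ENSG00000010704.18, chromosome 6, 26087281 to 26098343) had 4.07, 4.02 and 4.47 FPKM with fatty acid, against 4.29, 3.31 and 3.71 FPKM in control. The groups overlapped through control replicate 1, and HFE was called in no setting (4.19 ± 0.244 FPKM with fatty acid and 3.77 ± 0.489 FPKM in control, log2 fold change 0.14 ± 0.10, limma adjusted p = 0.384).

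By FPKM on the lengths in the table, the order from high to low with fatty acid was FTL, FTH1, CP, TF, TFRC, SLC40A1, SLC11A2, HFE, TFR2 and HAMP, and no neighbouring pair had overlapping ranges over the libraries. In control the order was FTL, FTH1, TF, CP, SLC40A1, TFRC, SLC11A2, HFE, TFR2 and HAMP, and SLC40A1 with TFRC and SLC11A2 with HFE could not be told apart by their ranges. Principal transcript lengths, which 7 of the 10 genes have, give TF no fair place, as its principal transcript runs beyond the counted gene. FTL ranked 12th and FTH1 22nd among all genes with fatty acid, and 15th and 25th in control.

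Around these genes, 9 lists of the wider iron pathway held 125 genes, of which 111 were tested, 19 were higher, 11 were lower and 81 were not called, with a median log2 fold change of 0.06 against 0.04 for all genes tested. Over all genes tested 12.9% were called, 8.22% higher and 4.68% lower. The lists were also chosen with earlier results of these data known, so setting them beside these shares is no test. Without fatty acid replicate 1, 2 or 3 or control replicate 3 the list genes called were 11, 12, 19 and 19 in place of 30. The share called was highest in the list of iron import and reduction other than the 10 genes: 6 of 9 tested were higher and none lower, with a median of 0.53. Besides importers and reductases it holds LCN2 and LTF, whose proteins bind iron or its carriers, and both are among the 6. SLC39A8, which encodes the zinc, manganese and iron importer ZIP8, had 29.8, 26.8 and 28.1 FPKM with fatty acid, against 10.5, 11.4 and 10.5 FPKM in control. It was thus clearly separated, with a log2 fold change of 1.35 ± 0.06 (limma adjusted p = 8.74e-05). LCN2, which binds bacterial iron carriers, averaged 45.1 ± 1.37 FPKM with fatty acid and 15.4 ± 2.90 FPKM in control (0.000455). The metalloreductase family gene STEAP1 averaged 27.2 ± 1.32 FPKM with fatty acid and 15.9 ± 0.954 FPKM in control (0.000664). LTF, which encodes lactoferrin, was low, at 0.870 ± 0.0954 FPKM with fatty acid and 0.166 ± 0.0384 FPKM in control. It reached the expression minimum only through the fatty acid libraries, so its call is no independent result, though the 6 and the median of 0.53 include it. With a minimum of 2 FPKM, which LTF did not reach, 5 genes of the list were called, all higher. The other two risers, named after their values were seen, were the ferric reductase gene STEAP2 (log2 fold change 0.53 ± 0.10, 0.0192) and SLC39A14, which encodes ZIP14, a hepatocyte importer of iron not bound to transferrin (0.30 ± 0.06, 0.0217). SLC39A14 lost its call without any 1 fatty acid replicate or control replicate 3 and without the intensity trend. These calls numbered 3 to 6 when 1 library was left out. STEAP3, the endosomal ferric reductase of the transferrin cycle, had 149.8 ± 3.14 FPKM with fatty acid and 148 ± 10.2 FPKM in control and was not called (adjusted p = 0.876).

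The BMP and SMAD pathway, which drives hepcidin in hepatocytes, had 5 genes lower and 1 higher among 21 tested, with a median log2 fold change of 0.04. The split turned to 2 lower and 4 higher after rescaling to TPM, and without fatty acid replicate 1, 2 or 3 or control replicate 3 only 1, 1, 2 and 3 genes were called. HFE2 had 4.25, 4.81 and 4.72 FPKM with fatty acid, against 10.3, 9.41 and 9.87 FPKM in control, a log2 fold change of -1.02 ± 0.07 (limma adjusted p = 0.000291) that was called in 17 of 17 alternatives. TMPRSS6, a membrane protease that cleaves hemojuvelin and so restrains hepcidin, averaged 1.53 ± 0.325 FPKM with fatty acid and 3.16 ± 0.653 FPKM in control (0.0189). Thus a positive and a negative regulator of hepcidin both fell. The ligand gene BMP4 and the BMP target gene ID3 fell by 0.47 ± 0.11 and 0.42 ± 0.10 on the log2 scale (0.0311 and 0.0338), and ID2, also a target, and the type I receptor gene ACVR1, both named after their values were seen, had -0.26 ± 0.07 and 0.25 ± 0.06 (0.0395 and 0.045). These last 4 calls were each lost in 8 or more of 17 alternatives, and that of TMPRSS6 in 3. BMP6, the iron-regulated BMP ligand of liver endothelium, was listed at 0 in all 6 libraries. Of 8 endothelial markers CDH5 and CLEC4G were also at 0, and KDR, the only one tested, had 25.6 ± 0.972 FPKM with fatty acid and 40.7 ± 3.48 FPKM in control and was lower (log2 fold change -0.66 ± 0.07, limma adjusted p = 0.00195). The 8 summed to 25.3 to 27.3 FPKM with fatty acid and 37.7 to 44.7 FPKM in control, nearly all of it KDR. VWF, STAB1, STAB2 and LYVE1 each averaged 0.02 FPKM or less in both groups. PECAM1, below the expression minimum, went the other way, at 0.540 ± 0.00208 FPKM with fatty acid and 0.338 ± 0.0495 FPKM in control. The part of endothelial cells in the values of this pathway was not tested.

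The list for the IL-6 and STAT3 route, by which inflammation raises hepcidin, also counted CREB3L3, a factor that acts on HAMP itself. It had 4 genes higher and none lower of 12 tested, with a median of 0.22, and 1 to 7 were called when 1 library was left out. IL6 had 4.16, 3.00 and 2.97 FPKM with fatty acid, against 0.863, 1.91 and 1.35 FPKM in control, so its groups did not overlap (log2 fold change 1.07 ± 0.22, limma adjusted p = 0.0217). SOCS3, a feedback inhibitor induced by STAT3, averaged 12.5 ± 2.37 FPKM with fatty acid and 7.15 ± 1.18 FPKM in control (0.0241). CREB3L3, a hepatocyte transcription factor of the endoplasmic reticulum known to act on HAMP, averaged 52.1 ± 3.30 FPKM with fatty acid and 27.0 ± 2.71 FPKM in control (0.000688). The kinase gene JAK1 rose by 0.31 ± 0.07 on the log2 scale (0.0269). IL6, SOCS3 and JAK1 lost their calls in 5, 4 and 6 of 17 alternatives, fatty acid replicate 1 left out being 1 of them for each. CREB3L3 kept its call in all 17. STAT3, IL6ST and JAK2 were not called (limma adjusted p = 0.0614, 0.0506 and 0.0763).

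Among sensors of cell iron, 2 of 9 tested genes were called, both higher, and 0 to 1 when 1 library was left out. ACO1, which encodes cytosolic aconitase and, without its iron-sulfur cluster, iron regulatory protein 1, averaged 25.2 ± 1.11 FPKM with fatty acid and 19.5 ± 0.844 FPKM in control (log2 fold change 0.36 ± 0.06, limma adjusted p = 0.0103). FBXL5, the iron-sensing subunit of the ligase that degrades iron regulatory proteins, rose by 0.23 ± 0.06 (0.0365), a call lost in 12 of 17 alternatives. IREB2, which encodes iron regulatory protein 2, and NCOA4, the receptor for ferritin breakdown, had 0.15 ± 0.07 and 0.06 ± 0.06 and were not called. Of the other two ferroxidases, HEPH and HEPHL1, neither reached the expression minimum, and PRNP and APP, counted with them, had 0.25 ± 0.08 and 0.15 ± 0.05 and were not called (0.0732 and 0.0957).

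Of 13 heme synthesis genes 1 was called: ALAD, the enzyme of the second step, averaged 13.2 ± 0.714 FPKM with fatty acid and 20.02 ± 0.474 FPKM in control (log2 fold change -0.58 ± 0.06, limma adjusted p = 0.00143), while ALAS1, the rate-limiting enzyme of the liver, had 0.03 ± 0.07. Of 14 tested genes for scavenging and breakdown of heme and hemoglobin 2 were lower, HPR and AMBP (-0.86 ± 0.08 and -0.57 ± 0.07), and 1 higher, HP (0.39 ± 0.07), with a median of -0.07. HP and HPR are near-identical neighbours between which reads can be split wrongly, and both values are uncertain for that reason. HP lost its call in 4 of 17 alternatives. HMOX1, the inducible heme oxygenase, had 6.43 ± 0.365 FPKM with fatty acid and 5.16 ± 0.830 FPKM in control and was not called (0.112). Of 20 genes for mitochondrial iron and iron-sulfur clusters 4 were higher, among them HSPA9, CISD2 and ISCA1 by 0.25 to 0.40 on the log2 scale, and none lower, with a median of 0.05, and 1 to 4 were called when 1 library was left out. Of 11 iron-regulated and hypoxia genes HIF1A was higher (0.72 ± 0.06, 0.000374), and NDRG1, ADM and CA9, known targets of hypoxia, were lower (-0.36 ± 0.06, -0.40 ± 0.08 and -0.80 ± 0.17). These 4 calls became 1, that of HIF1A, when fatty acid replicate 1 was left out. They became 2 without either fatty acid replicate 2 or control replicate 3. NDRG1, ADM and CA9 lost their calls in 2, 6 and 5 of 17 alternatives.

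**Figure D4:**
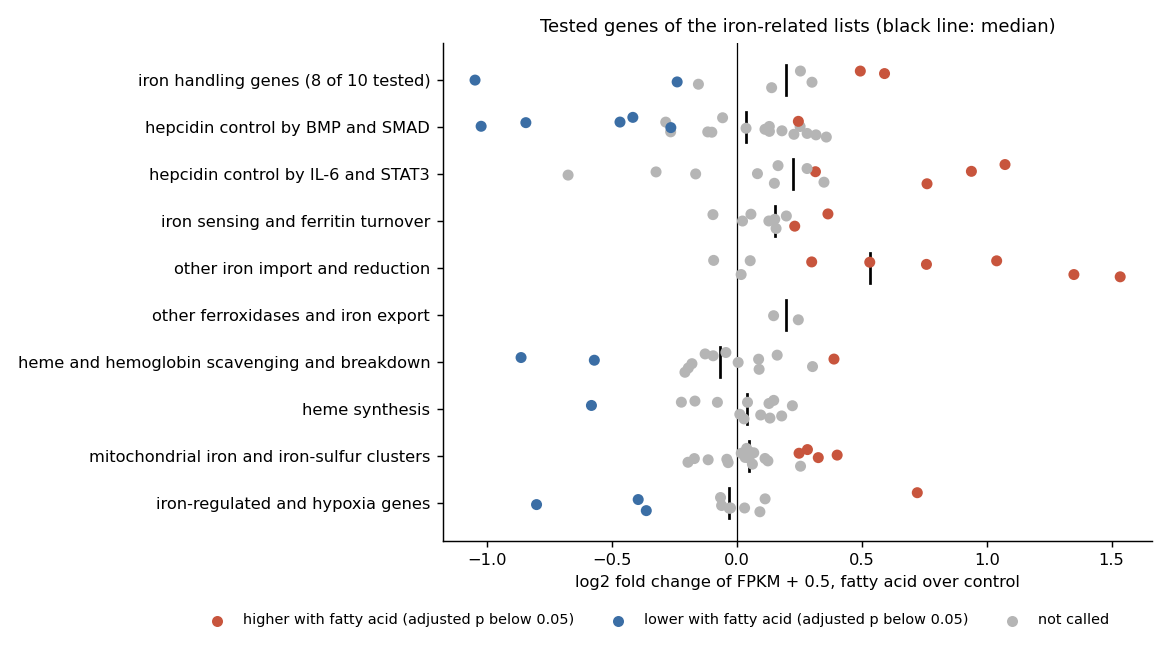
Log2 fold change (horizontal axis, fatty acid over control) of each tested gene of the 10 iron handling genes and of the 9 lists, with called genes in colour and medians as black lines. The list of other iron import and reduction lies furthest to the right, with a median of 0.53 and no called gene on the left. That list includes LTF, which reached the expression minimum only through the fatty acid libraries.

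**Figure D5:**
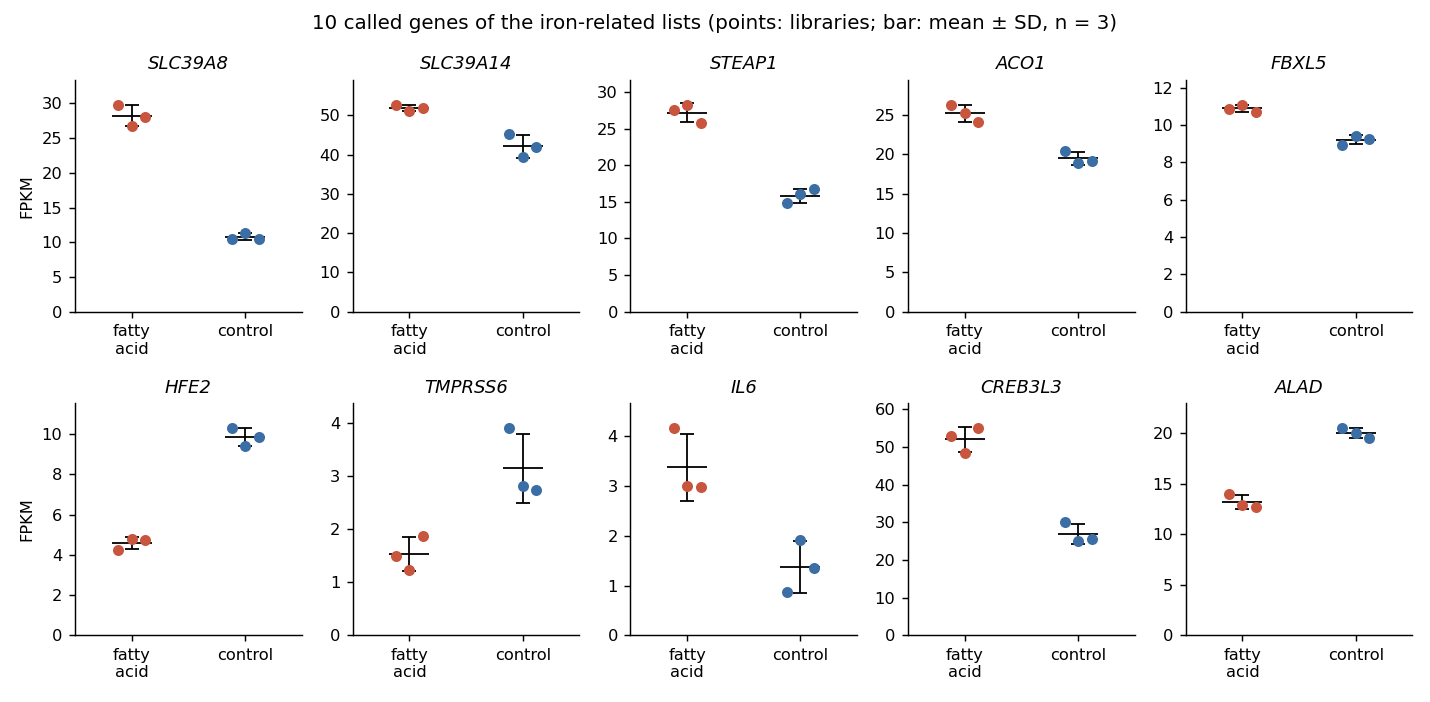
FPKM (vertical axes from 0) of 10 called genes of the lists, with 1 point per library, fatty acid left and control right, and mean ± SD (n = 3). SLC39A8 lies at 26.8 to 29.8 FPKM with fatty acid and 10.5 to 11.4 FPKM in control, and HFE2 at 4.25 to 4.81 and 9.41 to 10.3 FPKM.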

How the data were processed

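Per the labels' protocols, an Illumina stranded mRNA kit was used with an input of 100 ng. STAR 2.5.2, Subread 1.5.1 with featureCounts, and GRCh38 are listed in the submitters' processing notes. The authors deposited FPKM with 3 decimals and, per the file headers, gene length, type and position. FPKM times length gave whole reads in 100% of values fine enough to tell (tolerance 0.02 reads beyond rounding), which gave the depth.

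The test, for genes averaging 0.5 FPKM or more, was limma 3.58.1 (R 4.3.3, intensity trend) on log2(FPKM + 0.5), 3 fatty acid against 3 control libraries, no covariate. In simulated data drawn from the real means and depths the fit was checked for calls and false calls. The simulation gave all genes the same spread between replicates, so it does not vouch for the calls in the real data. Members and lists were chosen with earlier results of these data known. Named genes were the members, per list the 4 called with the smallest p or, with none called, the 2 with the smallest p, and the 3 nearest profiles to the called members with the largest rise and fall. Regulators and markers named beside these (such as STEAP3, IREB2, NCOA4, ALAS1 and HMOX1) were added for their role after their values were seen. HAMP, with 3 reads, had no profile to match. Some list genes are not reported here.

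Alternatives were 2 pseudocounts, 2 filters, 4 scalings, no trend, voom, the replicate block and each library left out. Intervals are exact conditional binomial. Figures used matplotlib 3.10.9 and Python 3.11.15.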

Additional observations from a re-analysis of the deposited data

How the results depend on the processing

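TF and CP kept direction and call in all 17 alternatives, FTH1 in 16 and SLC40A1 in 9, and HFE stayed uncalled in all 17. The number of the 10 genes called, 4 as reported, was 2 with no expression filter (TF and CP), 7 with limma voom on recovered reads (FTL, SLC11A2 and TFRC added) and 3 to 5 when 1 library was left out. FTL reversed with quantile normalization (log2 fold change 0.22, adjusted p = 0.074); the cause was not tested. Over all genes, 1891 were called, 977 with no filter, 1101 with no intensity trend, 3023 (2615 higher) after rescaling to TPM, which moved the all-gene median to 0.18 on the log2 scale, and 463 to 1629 when 1 library was left out, lowest without fatty acid replicate 1, then 484 without fatty acid replicate 2, 913 without fatty acid replicate 3 and 1041 without control replicate 3. Higher and lower calls were 1205 and 686 as reported, 717 and 861 with median-of-ratios scaling, 758 and 772 with quantile normalization, 706 and 828 with scaling to nuclear reads, and 1268 and 1445 with voom, which called 2713. List genes called numbered 30 as reported 19 with no filter and 11 to 31 when 1 library was left out. The log2 difference of the FTL to FTH1 ratio was -0.071 with quantile normalization, a setting added for it after seeing the data (the cause was not tested), and -0.73 to -0.57 when 1 library was left out, and that of TFRC to TFR2 between 0.25 and 0.88. A pairing of the libraries by replicate number was not clear. The correlations of same-numbered deviations were 0.0122, 0.0836 and 0.0224, and those of differently numbered ones ran from -0.0940 to 0.0731. With the replicate number as a block 1474 genes and 5 of the 10 genes were called. TFR2 and HAMP are limited by depth.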
